A study of Oryza sativa with 2 samples.

Results

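NAC45, NAC067 and NAC068 are rice genes for NAC transcription factors, proteins that bind DNA through a conserved N-terminal NAC domain and regulate transcription through a variable C-terminal region. They were chosen by name: every probe set annotated to a single gene whose symbol or synonym, with a leading Os dropped, is one of these names was taken. This gave 3 genes of the 17905 with a probe set of their own, each read by 1 probe set, and all 3 passed the filter on dim signals. Levels were measured on 2 single-colour oligonucleotide arrays of Oryza sativa leaf RNA, with 1 array for yellow leaf tips, called yellow tips below, and 1 for green leaves. The yellow leaf tip array carries RNA from the recombinant inbred lines labelled F9Y, listed as mutant and sampled in the vegetative stage. The green array carries RNA from the recombinant inbred lines labelled F9G, listed as normal green. Recombinant inbred lines are fixed by repeated inbreeding after a cross, here between parents that the labels do not name, and the series concerns the early-senescing mutant SA0420. The comparison was designed to follow gene expression during leaf-tip yellowing. The 2 arrays differ in line as well as in leaf colour. Line, yellowing and any difference in leaf part therefore cannot be told apart. The titles speak of leaves and the descriptions of leaf tips, and how many plants or lines each RNA came from is not stated in the labels.

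Plant NAC proteins take their name from the first members described, NAM, ATAF and CUC, and they form one of the largest plant-specific families of transcription factors. Some act in organ boundaries and secondary walls, and others respond to drought, salt, cold, abscisic acid or pathogens or control the onset of leaf senescence, in which chlorophyll is broken down and nutrients are moved out of the leaf. NAC45, also listed as ONAC045, is known as a gene induced by drought, salt, cold and abscisic acid. NAC067 was first described as OsNAC3 and has been studied in the abscisic acid and salt response. NAC068, first described as OsNAC4, is known as a positive regulator of hypersensitive cell death, the local cell death that follows recognition of a pathogen.

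The arrays gave bright signals for leaf genes. The Rubisco small subunit gene RBCS had a mean signal of 14688 in yellow tips against 18792 in green leaves over 4 probe sets, and the light-harvesting gene CAB2R had 43925 in yellow tips and 53288 in green leaves over 2 probe sets. Of the 7 leaf markers measured, none differed by 2-fold as a mean over its kept probe sets, with log2 differences from -0.75 to 0.51. Over all genes only 5.57% were higher and 3.18% lower by at least 2-fold, and 7 genes are too few to be read against this. Probe sets of the same marker could disagree: those of PSAG, the highest, differed by 1.29 in log2 difference and those of RBCS by 1.15. Of the markers of other tissues, the anther gene RTS had a signal of 12.5 in yellow tips against 52.5 in green leaves, and the glutelin gene GLUA1 had 25.3 in yellow tips and 5.86 in green leaves, all below the array medians. The seed gene RAG2 (221 in yellow tips, 294 in green leaves), the glutelin gene GLUB-4 (22.3 in yellow tips, 186 in green leaves) and the aquaporin gene PIP2-5, taken as a root marker (49.5 in yellow tips, 322 in green leaves), were above the median of 97.5 on the green array. RAG2 had 4 probe sets, and its signals are those of the 1 that was kept. GLUB-4 and PIP2-5 were lower in yellow tips, with log2 differences of -2.17 and -2.21, and both passed the filter only through the green array. Whether other tissues had a part in the NAC values was not tested. In RNA of a whole leaf piece, fewer cells of a type and less RNA per cell cannot be told apart.

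NAC45 had a signal of 365 in yellow tips against 150 in green leaves, on the probe set of LOC4349650, its locus in the gene table. The signal was thus higher on the yellow leaf tip array, by 2.44-fold as deposited. On the scale used below, the log2 of signal plus a pseudocount of 22.6, centred on the median of all kept probe sets, the difference was 1.22, or 2.33-fold. Of 14697 genes with a kept probe set, 96.4% had a lower value than NAC45 and 534 a higher one. NAC45 and NAC077, a gene of the same family, lie on chromosomes 11 and 12, whose ends share a duplicated segment. NAC077 had no probe set in the annotation used here, and whether the NAC45 probe set also reads its transcript was not tested.

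NAC067 had a signal of 2881 in yellow tips against 1551 in green leaves, on the probe set of LOC4342753. It was again brighter on the yellow leaf tip array, by 1.86-fold as deposited. The centred log2 difference was 0.93, or 1.91-fold, just short of the 2-fold line (a log2 difference of 1). By this measure 93.5% of genes lay below NAC067 and 955 above it.

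NAC068 had a signal of 237 in yellow tips against 287 in green leaves, on the probe set of LOC4327485. Unlike the other members it was the dimmer on the yellow leaf tip array, with a ratio of 0.826 as deposited. Its centred log2 difference was -0.20, and 10574 genes had a higher value. The log2 difference of NAC45 exceeded that of NAC068 by 1.42 and that of NAC067 by 0.29, and NAC067 exceeded NAC068 by 1.14.

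**Figure D1:**
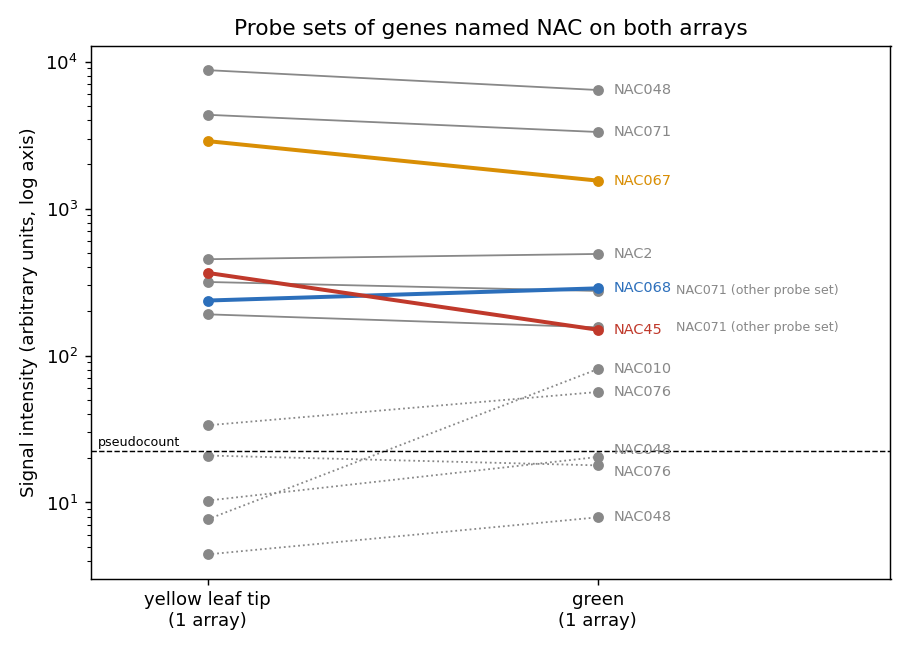
Signal intensity (log axis) of each probe set of the NAC-named genes on the yellow leaf tip array and the green array, 1 array each. Lines join the values of a probe set, coloured for NAC45, NAC067 and NAC068 and grey for other genes, and dotted lines mark probe sets below the filter. NAC45 and NAC067 stand higher in yellow tips (NAC45 at 365 in yellow tips against 150 in green leaves, NAC067 at 2881 in yellow tips against 1551 in green leaves), and NAC068 stands lower (237 in yellow tips against 287 in green leaves).

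There was no replicate array, so no test of these differences was possible. They compare 2 arrays, not the conditions. The only spread at hand was that between probe sets of the same gene, which covers disagreement between probes and not between plants, extractions or arrays. Each NAC member had only 1 probe set, so the spread was taken from other genes of like brightness. The kept probe sets were sorted by mean log2 signal into 5 bins of equal size. NAC45 and NAC068 were in bin 2, counted from the dimmest, where probe sets of the same gene had an SD of 0.52 in their log2 difference (146 genes). The NAC45 difference of 1.22 was larger than that spread and the NAC068 difference of -0.20 was smaller. NAC067 was in the brightest bin, where the SD was 0.22 (309 genes), and its difference of 0.93 was larger than that spread. These SDs cover only genes with more than 1 probe set in the same bin. Pooled over all 2215 genes with more than 1 kept probe set, whatever their brightness, the SD was 0.46. The differences of NAC45 and NAC067 were larger than this too, and that of NAC068 was smaller.

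At a log2 difference of 1 or more in size, 1 of the 3 members, NAC45, was higher in yellow leaf tips and none was lower. Over all genes with a kept probe set, 5.57% were higher by this rule and 3.18% lower, and 3 genes are too few to be read against those shares. Dim probe sets passed the line more often. In the bin that holds NAC45 and NAC068, 6.51% of probe sets were higher and 6.46% lower, whereas in the brightest bin, which holds NAC067, 3.62% were higher and 1.90% lower. NAC45 was no longer past the line with a larger pseudocount, the median of all values (88.7), at which its difference was 0.97.

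**Figure D2:**
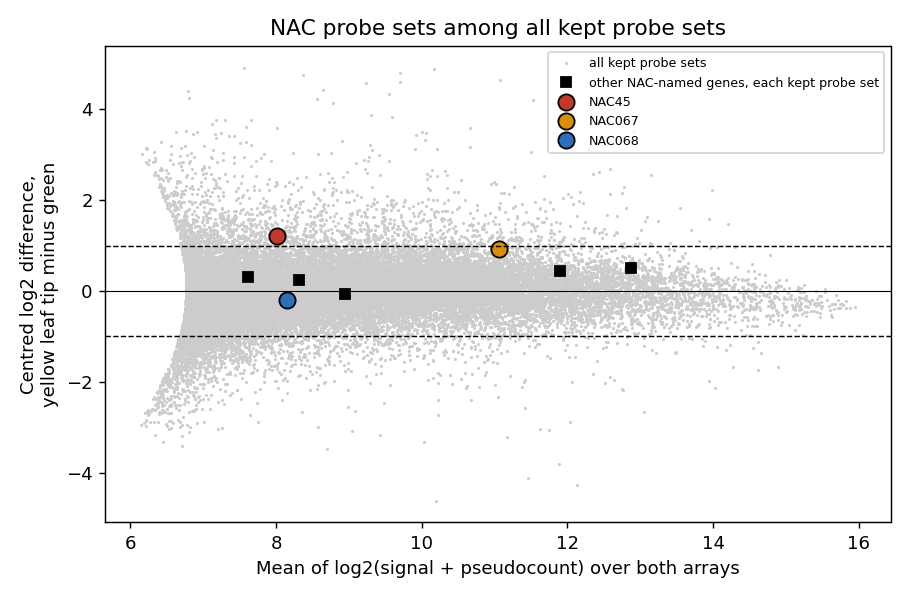
Centred log2 difference, yellow leaf tip minus green, against the mean log2 signal of both arrays for all kept probe sets (grey), with NAC45, NAC067 and NAC068 as coloured circles and other NAC-named genes as black squares. Dashed lines mark a log2 difference of 1 in each direction. NAC45, at 1.22, lies above the upper line, NAC067, at 0.93, just below it, and NAC068, at -0.20, near the middle of the cloud.

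The gene table names few of the many NAC genes of rice. The name pattern took up 11 genes, of which 9 had a probe set of their own and 7 a kept one. One of these, NAP1, is also listed as P125Nap1, a name that does not mark a NAC gene. It had a signal of 1291 in yellow tips against 1093 in green leaves. Without it, 6 NAC-named genes were measured, 4 with a difference above 0 and 2 below. Over all genes, 8312 of 14697 were above 0 and 6384 below, and 6 genes are too few to be read against this. Their median was 0.41, against 0.08 over all genes, and with NAP1 it was 0.33. This median rests on the filter: with no filter it was 0.048 over 9 genes, NAP1 included. NAC45 was the only one past the 2-fold line. The 3 genes other than the members ran from -0.06 to 0.50, 2 above 0 and 1 below, with a median of 0.33.

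Among these, NAC048, better known as OsNAC6 or SNAC2, a regulator of drought, salt and disease responses, had a signal of 8761 in yellow tips against 6417 in green leaves, a log2 difference of 0.50. A pair of further probe sets of NAC048 lay below the filter, with signals of 4.43 and 10.3 in yellow tips against 7.93 and 20.4 in green leaves. Probe sets of the same gene thus differed by orders of magnitude in brightness, and signals of different NAC genes are not compared here as levels. With no filter the mean of NAC048 was 0.05.

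NAC071, known as OsNAC5, a gene associated with abscisic acid, salt and senescence, had 3 kept probe sets. Its brightest had a signal of 4352 in yellow tips against 3324 in green leaves. The other two had 191 and 317 in yellow tips against 156 and 275 in green leaves. All 3, of which 1 has a name ending in _x that marks possible cross-hybridization, read slightly higher in yellow leaf tips, with a mean log2 difference of 0.33 and a range between probe sets of 0.20.

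NAC2, listed as ONAC004 and OsTIL1 and known from work on tillering and on leaf senescence, had a signal of 453 in yellow tips against 492 in green leaves, a difference of -0.06. The name of its probe set ends in _a, which marks transcripts of the same gene. NAC068 and NAC2 are both listed under the synonym NAC4. They are different genes with separate probe sets, and both lay within 2-fold.

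The remaining named genes gave little signal. NAC010 had 7.68 in yellow tips against 80.9 in green leaves, a log2 difference of -1.72, but its mean was below the filter and its yellow leaf tip signal below the pseudocount. The size of this difference therefore depends on the pseudocount. NAC076, first described as OsNAC7, had signals of 33.5 and 20.9 in yellow tips against 56.5 and 17.9 in green leaves on 2 probe sets, both below the filter, and these point in opposite directions. NAC074 had no probe set of its own, since those annotated to it are shared with another gene, and it was not analysed here.

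Abscisic acid is the hormone to which several stress NAC genes respond, and genes of its pathway were set beside them. The dehydration genes, which encode mostly protective hydrophilic proteins, split widely. Of 9 with a probe set, 7 were measured, 4 were higher by at least 2-fold and none was lower. Over all genes, 5.57% were higher and 3.18% lower. The count and the median are partly set by the filter: LEA19 and RAB16B passed it only through the yellow leaf tip array. RAB21, with a mean green signal of 73.5 against a filter at 86.0, also leaned on that array to pass. The genes rab25 (37.3 in yellow tips, 88.0 in green leaves) and RAB16D (47.7 in yellow tips, 70.1 in green leaves) did not pass. The median was 2.13, against 0.08 over all genes, and it was 0.044 when probe sets with names ending in _x, _s or _a were left out, 0.087 unfiltered, and -0.019 when the filter was raised to the 75th percentile. The dehydrin gene RAB21 had a mean signal of 422 in yellow tips against 73.5 in green leaves over 2 probe sets (2.26). The salt-induced lectin gene salT had 3664 in yellow tips and 885 in green leaves over 2 probe sets (2.13).

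RAB16B had 257 in yellow tips against 9.24 in green leaves (3.19, and 1.86 to 4.85 over the settings), and LEA19 had 205 in yellow tips and 5.84 in green leaves (3.05, and 1.68 to 5.19). Their green signals lay below the pseudocount, so these sizes are loosely fixed. The sole probe set of LEA19 ends in _s, and salT was read by 1 ending in _a and 1 ending in _x. The RAB16 genes are similar in sequence, and whether their probe sets read each other was not tested. In the same list RAB16C had 776 in yellow tips and 775 in green leaves (0.05), Dhn1 had 1160 in yellow tips and 1643 in green leaves (-0.44) and EM, an embryo gene of late embryogenesis, had 86.8 in yellow tips and 182 in green leaves (-0.85). Dhn1 had 3 probe sets, and its signals are those of the 1 that was kept. The NAC45 difference of 1.22 thus lay between the 4 high and the 3 other dehydration genes.

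Of 17 abscisic acid signalling and metabolism genes with a probe set, 16 were measured, 3 were higher by at least 2-fold and 1 was lower, with a median of 0.03, against 5.57% higher, 3.18% lower and a median of 0.08 over all genes. TRAB1, a bZIP factor that binds abscisic acid response elements, had a signal of 1507 in yellow tips against 371 in green leaves (2.01). SAPK3, a protein kinase of the SnRK2 family, had 4395 in yellow tips and 1435 in green leaves (1.65), and ZEP1, a zeaxanthin epoxidase of abscisic acid synthesis, was the third (1.35). ABA8OX1, which breaks the hormone down, had 1734 in yellow tips and 3759 in green leaves (-1.06), and the kinase gene SAPK2 had -0.41. The list had 3 genes higher and 1 lower under all 9 other settings as well, but its median was below 0 under the 3 other scalings and the stricter filter, -0.04 at the lowest.

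Among other transcription factors linked to stress, 20 were measured, 5 were higher by at least 2-fold and 1 was lower, with a median of 0.12, against the same 5.57% and 3.18% over all genes. The homeodomain gene Hox22 had a signal of 1562 in yellow tips against 198 in green leaves (2.89), and HOX24 had 267 in yellow tips and 94.7 in green leaves (1.36). DREB1G, of the family that binds the dehydration-responsive element, had 1291 in yellow tips and 2810 in green leaves (-1.06), and the MYB gene MYBS2 had -0.77 on 3 probe sets that differed by 0.96. The count of higher genes was 3 with the larger pseudocount, under the stricter filter and when probe sets ending in _x, _s or _a were left out, where the median was -0.04.

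Some NAC factors of rice and Arabidopsis bind promoters of chlorophyll breakdown genes, and 4 of these genes were measured. SGR, named for the stay-green leaves of its mutants, had a signal of 1725 in yellow tips against 304 in green leaves (2.48), and RCCR1 of the later steps had 3501 in yellow tips and 1958 in green leaves (0.88). The chlorophyll b reductase genes NYC1 and NOL had -0.24 and -0.15. Like NAC45 and NAC067, SGR was brighter on the yellow leaf tip array, but with 2 arrays no association between genes can be computed.

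**Figure D3:**
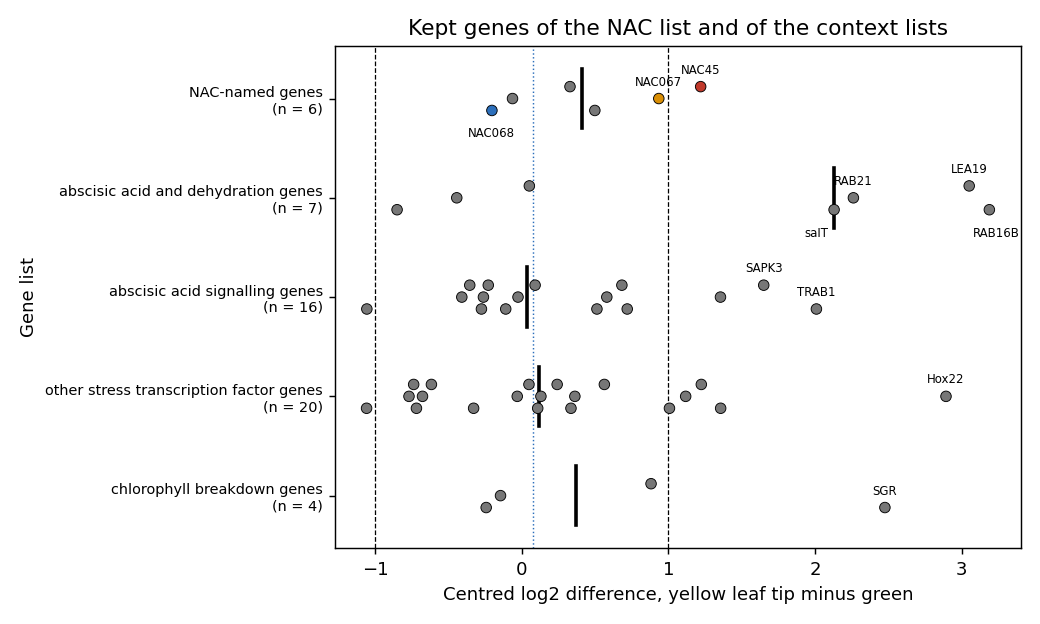
Centred log2 difference, yellow leaf tip minus green, of each measured gene in the NAC list (without NAP1) and in the context lists, with black bars at list medians, dashed lines at a log2 difference of 1 in each direction and a dotted line at the median of all genes (0.08). NAC45 (1.22) lies right of the right-hand dashed line, and the dehydration list runs from -0.85 to 3.19.

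The named genes with signals most like each NAC member on both arrays were found by the Euclidean distance in log2 of signal plus pseudocount. With 2 arrays, this likeness means only a similar brightness and a similar difference. Nearest to NAC45 were CIPK11, a calcium-regulated protein kinase gene (signal 390 in yellow tips against 154 in green leaves, distance 0.098), XylT (377 in yellow tips, 174 in green leaves, distance 0.19) and FTSH6 of the FtsH protease family (422 in yellow tips, 137 in green leaves, distance 0.22). Nearest to NAC067 were AT9 (2642 in yellow tips, 1544 in green leaves, distance 0.12), the cellulose synthase gene CESA8 (2638 in yellow tips, 1556 in green leaves, distance 0.13) and SAM2, an S-adenosylmethionine synthetase gene (3152 in yellow tips, 1511 in green leaves, distance 0.13). Nearest to NAC068 were the cyclin-dependent kinase gene CDC2-2 (256 in yellow tips, 331 in green leaves, distance 0.037), ZHD1, a zinc finger homeodomain gene (249 in yellow tips, 287 in green leaves, distance 0.068), and NSHB1, a haemoglobin gene (228 in yellow tips, 290 in green leaves, distance 0.074).

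The direction of each NAC member was the same under every setting that gave it a value. Not every setting could change it. Each member was read by 1 probe set, so taking the brightest left its value as it was. The settings for centring, the filter and left-out probe sets could move a member's value only through the centring. NAC45 ran from 0.97 to 1.34, NAC067 from 0.86 to 0.97 and NAC068 from -0.25 to -0.16. NAC45 and NAC068 had no value under the filter at the 75th percentile, since their probe sets were too dim for it.

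**Figure D4:**
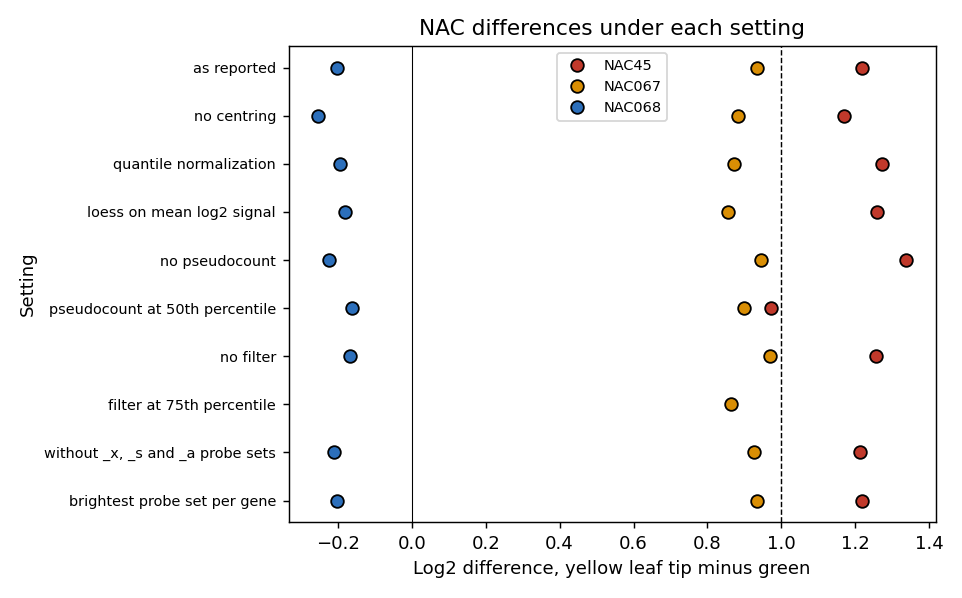
Log2 difference, yellow leaf tip minus green, of NAC45, NAC067 and NAC068 (points) as reported and under each of 9 other settings, where the solid line marks 0 and the dashed line a log2 difference of 1. NAC45 lies left of the dashed line only with the pseudocount at the 50th percentile (0.97), NAC067 stays left of it (0.86 to 0.97), and NAC068 stays below 0. Taking the brightest probe set could not move a member read by 1 probe set.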

How the data were processed

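Per the labels' protocols, RNA was extracted with an RNeasy kit and about 10 µg of it was converted to biotin-labelled cRNA. The authors deposited 1 signal intensity per probe set and array, on a linear scale, for 57381 probe sets. Their software, background correction and scaling are not stated in the sources used. The trimmed mean of the deposited signals (2% trim) was 500.08 on each array, so the ratios as deposited rest on a common scale. Precision is limited by the number of arrays.

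The 123 control probe sets were left out. A pseudocount of 22.6 (25th percentile of the rice values) was added before taking log2. Probe sets with a mean signal at or above the median, 86.0, were kept (28629). Log2 differences (yellow leaf tip minus green) were then centred by subtracting their median, -0.05, and averaged over a gene's kept probe sets. The platform annotation gave 1 gene for 22436 rice probe sets, several for 95 and none for 34727. All 17905 genes were found in the RefSeq gene table of ASM3414082v1, used for names, chromosomes and gene order only. The calculation, run in Python 3.11.15 with pandas 2.3.3, numpy 2.4.6 and statsmodels 0.14.6, was tested on simulated data. Changes were simulated in bright probe sets only, which leaves out signals as dim as those of NAC45 and NAC068.

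Members and lists were chosen with earlier results of these data known. Named were all NAC-named genes, up to 2 highest and 2 lowest measured genes of each context list, and the 3 nearest genes of each member. RAB21, salT, RAB16C, rab25, RAB16D, ZEP1, MYB4 and the chlorophyll breakdown and marker genes beyond this rule were chosen after their values were seen. A planned list of NAC-domain genes by protein similarity and a planned promoter search were not run, as sequences were not used here. Alternatives covered centring, quantile normalization, loess (fraction 0.3), pseudocount, filter, leaving out probe sets with names ending in _x or _s (possible cross-hybridization) or _a (transcripts of the same gene), the brightest probe set and a size threshold of 2. Leaving out NAP1 and the settings for the context lists were added after seeing the data.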

Additional observations from a re-analysis of the deposited data

How the results depend on the processing

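The differences of NAC45, NAC067 and NAC068 moved by less than the SD among probe sets of a gene at like brightness under each alternative that gave a value. With 1 probe set per member, taking the brightest could not move them. Alternatives for centring, the filter and left-out probe sets could move them only through the centring. The count of NAC-named genes higher by at least 2-fold, 1 as reported, was 0 with the pseudocount at the 50th percentile, under the 75th percentile filter and at a size threshold of 2. The count of lower ones was 0 as reported and 1 with no filter, which let NAC010 in. The median of NAC-named genes was 0.33 as reported and ran from 0.048, with no filter, to 0.44. Dehydration genes higher by at least 2-fold numbered 4 as reported, 1 under the 75th percentile filter (3 genes measured) and 2 when probe sets ending in _x, _s or _a were left out (5 measured); 1 was lower with no pseudocount. Their median of 2.13 became 0.087 with no filter, 0.044 without these probe sets and -0.019 under the 75th percentile filter; fewer or dimmer genes entered. The chlorophyll breakdown median of 0.37 became 0.87 without these probe sets (3 genes). Stress transcription factors higher by at least 2-fold numbered 5 of 20 as reported. This became 3 of 20 with the larger pseudocount, 3 of 12 under the 75th percentile filter and 3 of 17 without these probe sets. They numbered 4 with no centring, with quantile normalization and with loess. With the brightest probe set per gene 2 were lower, against 1 as reported. Over all genes, 819 of 14697 (5.57%) were higher and 468 (3.18%) lower as reported. With no filter 1374 of 17905 (7.67%) were higher and 788 (4.40%) lower. Under the 75th percentile filter 381 of 10050 (3.79%) were higher and 257 (2.56%) lower. The larger pseudocount gave 566 of 14697 (3.85%) and 261 (1.78%). Leaving out probe sets ending in _x, _s or _a gave 739 of 12802 (5.77%) and 434 (3.39%). Whether the list counts depart from these shares was not tested. The cause of the changes between settings was otherwise not tested. No paired analysis was possible because each group had 1 array. Leaving out a replicate was likewise not possible, and the protein similarity list was not run.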

Other observations

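The genes beside each NAC member in the order of the RefSeq table were looked up, up to 5 on each side. Of those beside NAC45, 5 were measured, with log2 differences from -0.28 to 3.82 and a median of 0.18. The high value is that of LOC4349648, named after its value was seen, which read 2824 in yellow tips against 186 in green leaves on 1 probe set. Beside NAC067, 4 were measured, from -0.05 to 0.47. Beside NAC068, 3 were measured, from 0.35 to 0.55, all above NAC068 itself at -0.20.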
